A study of Mus musculus with 60 samples.

Results

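Glycogen is the branched glucose store of the liver, and 8 genes of its metabolism (Ppp1r3b, Ppp1r3c, Ppp1r3g, Gyg, Ugp2, Gys2, Gbe1 and Pygl) were followed among the 38204 genes measured in mouse liver after exposure to heavy ions. The 8 genes were selected with results from these livers already known, among them the high Ppp1r3c level in 56Fe livers at 4 months, so every value of that contrast is given as a description with no test. Liver RNA was sequenced after removal of ribosomal RNA in 60 male C3H/HeNCrl mice, 3 in each of 20 groups. Mice aged 8 to 10 weeks received 0.2 Gy to the whole body of 600 MeV/n 56Fe, 1 GeV/n 16O or 350 MeV/n 28Si, or were sham-irradiated controls, and the left liver lobe was taken at 1, 2, 4, 9 or 12 months. All mice were shipped between institutions after exposure, spent a month in quarantine and ate and drank at will. The hour of collection and the last meal are not given in the sources used here.

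Glycogen is built on the self-glucosylating primer protein glycogenin (Gyg) from UDP-glucose, which Ugp2 makes, by the liver glycogen synthase Gys2 and the branching enzyme Gbe1, and it is broken down by the liver glycogen phosphorylase Pygl. Protein phosphatase 1 switches the synthase on and the phosphorylase off, and it is brought to the glycogen particle by targeting subunits, of which Ppp1r3b is the main one of liver and Ppp1r3c and Ppp1r3g are further members. In liver these genes serve the storage of glucose after meals and its release between meals, and several of them are known to follow feeding and the daily clock.

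Levels are given as scaled RPKM, that is, reads relative to transcript length and to the mapped reads of the library, summed over the transcripts of a gene and divided by a scaling factor for each library. By an estimate from the deposited RPKM and transcript lengths, the libraries held 11412665 to 40568208 mapped read pairs with a median of 18891345. The share of mapped pairs that fell in transcripts was 46.6 to 66.4% at 1 month and 43.4 to 62.3% at 2 months, against 56.0 to 84.7% at 4 months and 70.8 to 88.4% later. That share was estimated from the same values. The hepatocyte markers were high in every library, with Alb at 11220 to 30930 scaled RPKM, whereas other tissues' markers were mixed. Of the 4 skeletal muscle markers Acta1, Myh4 and Ckm were listed at 0 in 59, 40 and 33 of 60 libraries and Pygm in 0, at no more than 0.829 scaled RPKM, and of the acinar markers Prss1 was listed at 0 in 56 libraries while Cela1 held 10.85 to 51.7. The library of 16O replicate 2 at 12 months stood apart, with a mean Spearman correlation of 0.898 with the rest of its group and the highest summed Kupffer cell markers of that group (295 scaled RPKM against 49.7 and 76.5). In bulk tissue fewer cells of a type and less RNA per cell cannot be told apart.

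The enzymes were the abundant members. The median level over 60 libraries was 103 scaled RPKM for Pygl, 97.01 for Ugp2, 70.7 for Gys2 and 31.5 for Gbe1. Ppp1r3b followed with 14.5 and Ppp1r3c with 9.89. Gyg had a median of 1.81 and Ppp1r3g of 0.437, the latter from only 2 to 94 reads a library, and Ppp1r3g reached 0.5 RPKM in 27 of 60 libraries. Ppp1r3g was therefore not tested in 6 of the 15 comparisons of an ion with control. Where it was tested, it had passed the filter on low values partly through the group in which it was high. In 56Fe against control at 9 months it passed only through the controls.

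Along the 20 group means the targeting subunits had the widest range. Ppp1r3g differed 6.40-fold between 16O at 1 month and 16O at 9 months, at levels near the filter. Ppp1r3b differed 5.01-fold between its highest group, control at 1 month, and its lowest, control at 2 months. Ppp1r3c differed 4.60-fold between 56Fe at 4 months and 16O at 1 month. Gbe1 followed with 3.20-fold and Ugp2 with 2.97-fold, whereas Pygl, the most abundant member, had a range of 1.81-fold. In the order of the 20 groups nearly all neighbours overlapped. No gap between neighbours was found for Gys2, Pygl, Ugp2 or Gyg, and 1 of 19 was found for Ppp1r3b, below control at 1 month. Ppp1r3c had 1 gap, above 16O at 1 month, Ppp1r3g had 1, below 28Si at 12 months, and Gbe1 had 1, between the 12 groups of 4 months or later and the 8 groups of 1 and 2 months. The share of all genes with such gaps was not computed.

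**Figure D1:**
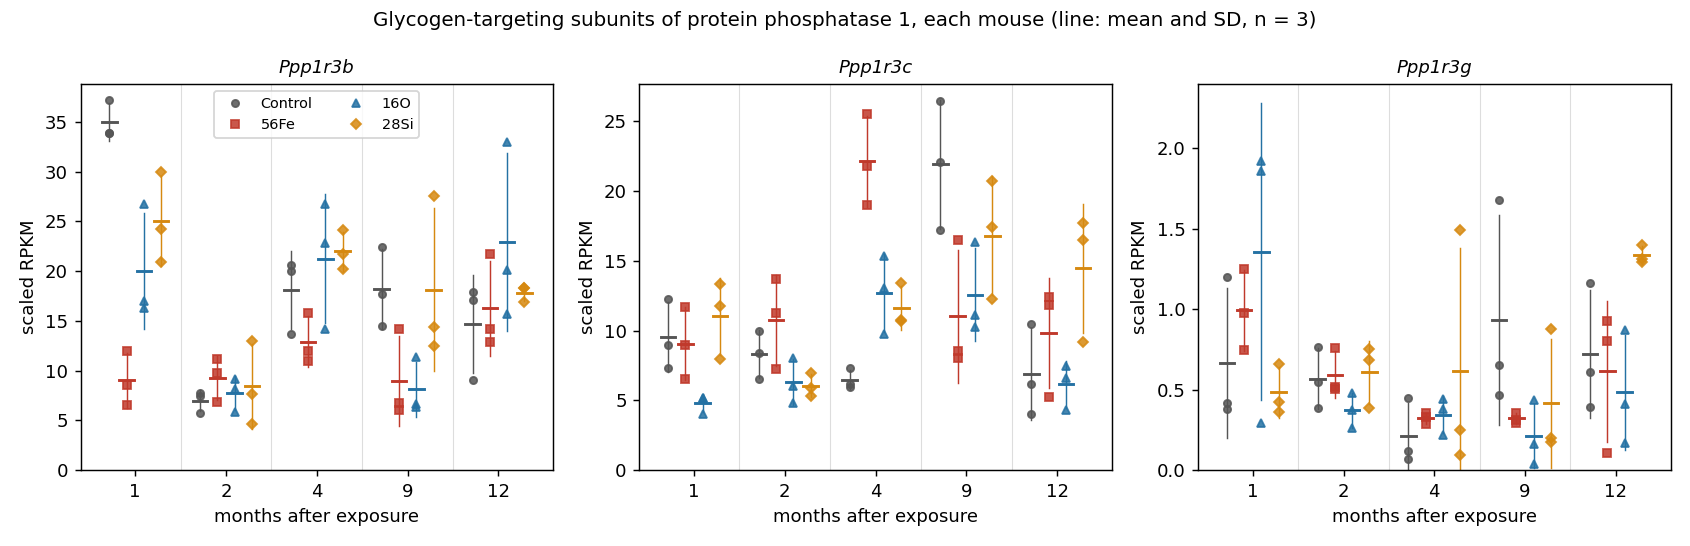
Scaled RPKM (vertical axis) of Ppp1r3b, Ppp1r3c and Ppp1r3g in each mouse against months after exposure, with 1 colour and marker a group, the horizontal line at the mean and the vertical line at 1 SD (n = 3). Ppp1r3b was highest in the controls of 1 month at 34.9, and Ppp1r3c in 56Fe at 4 months at 22.1 and in controls at 9 months at 21.9.

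**Figure D2:**
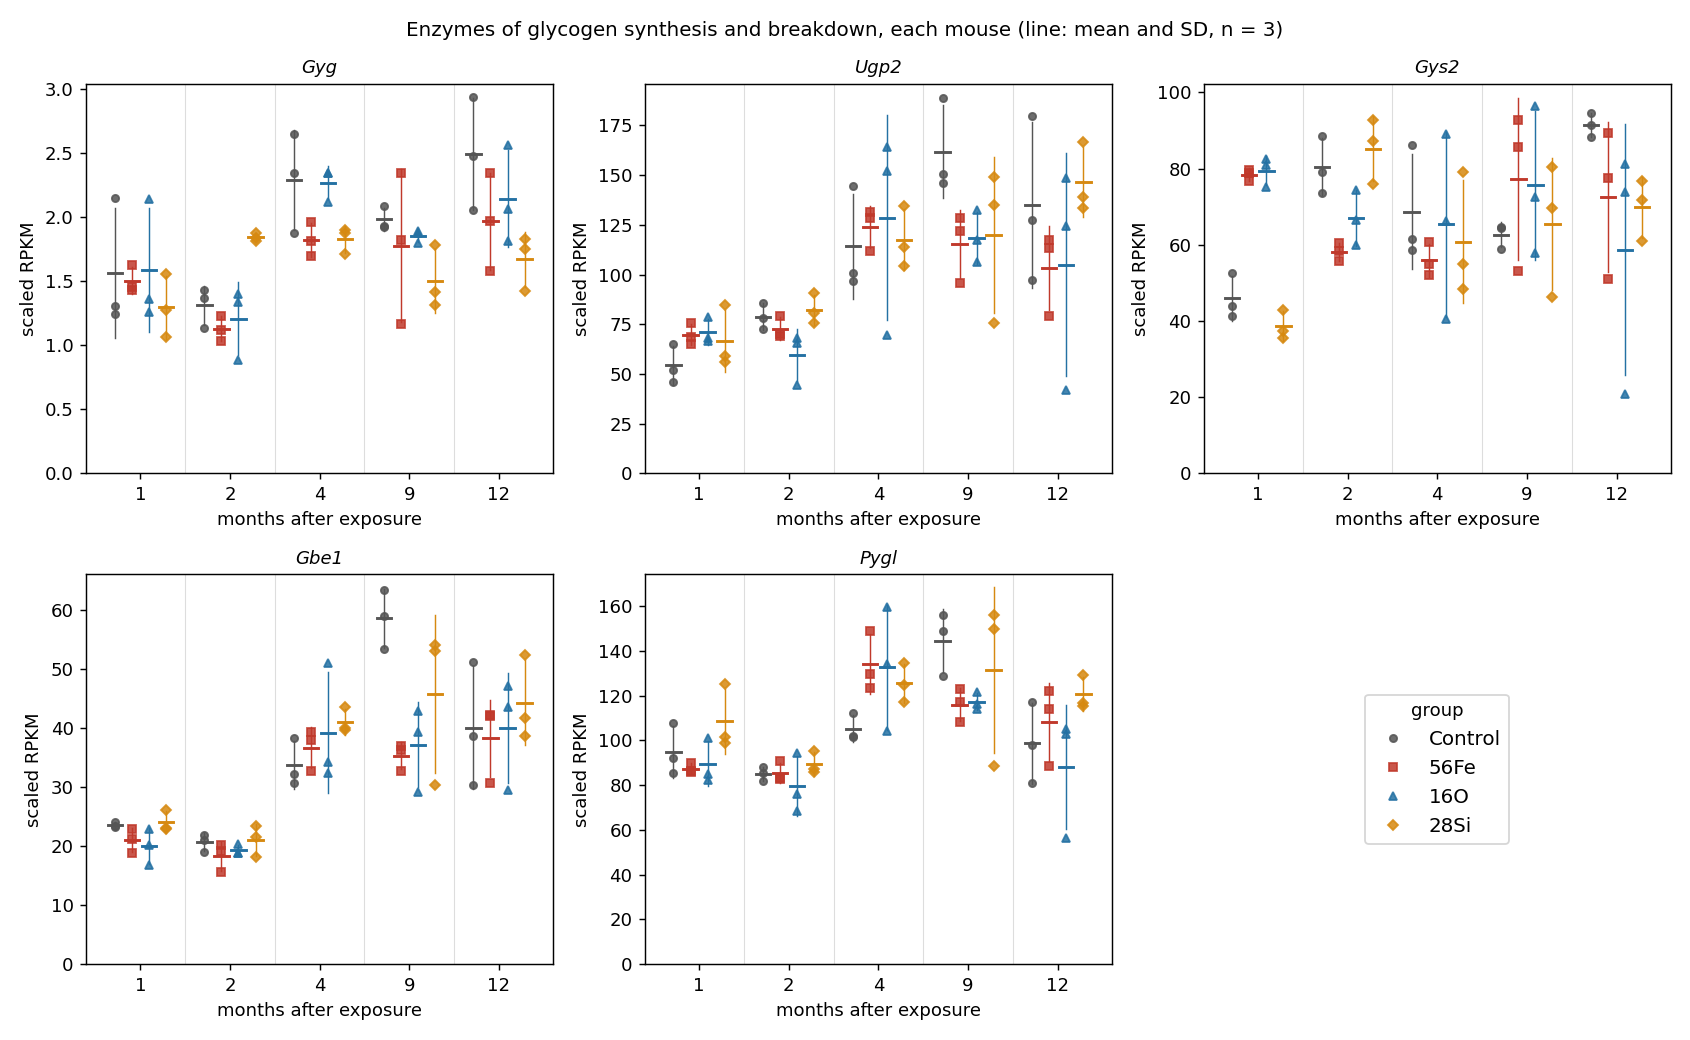
Scaled RPKM of Gyg, Ugp2, Gys2, Gbe1 and Pygl in each mouse against months after exposure, drawn in the same way. Gbe1 lay at or below 26.2 in all libraries of 1 and 2 months and at or above 29.1 in all later ones.

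In the GRCm38 genome, Ppp1r3b lies on chromosome 8 at 35375739-35388139 on the plus strand and Ppp1r3c on chromosome 19 at 36731731-36736653 on the minus strand. Ppp1r3g lies on chromosome 13 at 35958839-35970388 (plus), Gyg on chromosome 3 at 20122084-20155317 (minus), Ugp2 on chromosome 11 at 21321138-21371201 (minus) and Gys2 on chromosome 6 at 142422613-142473109 (minus). Gbe1 lies on chromosome 16 at 70313949-70569716 (plus) and Pygl on chromosome 12 at 70190811-70231488 (minus). Ppp1r3c has 1 transcript, ENSMUST00000087321 of 2725 bases, so its value does not depend on how reads were divided among isoforms. A single transcript held most of the mean signal of Gys2 (96.9%), Pygl (95.5%) and Gyg (90.9%), whereas that of Ppp1r3b (51.8%), Ugp2 (57.8%) and Gbe1 (67.1%) was shared. In single libraries the share of that Gyg transcript ran from 0 to 100%. Ppp1r3b, Ppp1r3g, Pygl and Ugp2 overlap other annotated genes, Gm45469, Gm30127, F730035M05Rik, and Gm12043 with Mir1933, and reads there may be divided between them.

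Ppp1r3c and Gbe1 were both higher in controls at 9 than at 4 months. The bases upstream of their annotated starts are shown for that reason, although the 4-month controls belong to the contrast on which Ppp1r3c was selected. Windows of 250 bases before to 50 after the start from RefSeq (GRCm38.p6) were matched for 6 of the 8 members. The stretch of Ppp1r3c is chr19:36736654-36736854 on the minus strand, with an E-box (CACGTG) in capitals, and that of Gbe1 is chr16:70313699-70313948 on the plus strand.
Ppp1r3c: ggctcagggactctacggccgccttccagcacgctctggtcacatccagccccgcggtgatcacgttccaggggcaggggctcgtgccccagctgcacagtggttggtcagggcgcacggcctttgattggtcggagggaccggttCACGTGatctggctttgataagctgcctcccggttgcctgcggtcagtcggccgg
Gbe1: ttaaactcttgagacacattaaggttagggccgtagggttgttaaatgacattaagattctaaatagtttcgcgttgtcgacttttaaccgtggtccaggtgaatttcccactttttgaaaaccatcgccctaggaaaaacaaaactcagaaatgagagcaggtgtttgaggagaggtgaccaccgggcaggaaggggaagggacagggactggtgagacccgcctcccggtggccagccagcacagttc
The E-box reads the same on both strands and is the element that the clock factors bind. It was present in the windows of Ppp1r3c and Gyg, and in 7.15% of 32817 windows in all. The D-box (TTATGNAA, 3.39% of windows on either strand), the cyclic AMP element TGACGTCA (1.79%), the forkhead element GTAAACA (3.65%) and TATAAA (13.6%) were found in no window of a member. A match describes these letters alone, and no match says nothing of a factor.

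Each ion was compared with control at each time with limma on log2(scaled RPKM + 0.1), and a gene passed at a Benjamini-Hochberg adjusted p of 0.05 or less over all genes tested. The 3 ions of a time share the same 3 controls. At 1 month, 2 of 8 members passed in 56Fe livers (1 rose and 1 fell), where 1.18% of all genes passed, and 2 of 8 passed in 16O livers (1 rose and 1 fell), where 1.6% of genes did. None of the 7 members tested passed in 28Si livers at 1 month (0.244% of genes), with 1 member at an unadjusted p under 0.05 and 0 by limma-voom. Of all genes tested there, 1473 of 11045 had an unadjusted p under 0.05.
At 2 months no member passed by limma in 56Fe (0% of genes), 16O (0%) or 28Si livers (0.0181%). The members at an unadjusted p under 0.05 there numbered 1, 1 and 2, and limma-voom passed 0 of them. Among all genes, 1376 of 11083, 1072 of 11105 and 924 of 11079 had such a p.
At 4 months Ppp1r3c stood out in 56Fe livers (0.541% of genes passed) by its selection. In 28Si livers 1 of 7 members tested rose (0.382% of genes), again Ppp1r3c, against the controls of the selected contrast. In 16O livers at 4 months no member passed by limma (0% of genes), 1 had an unadjusted p under 0.05 and limma-voom passed 0. Among all genes, 690 of 11286 had such a p.
At 9 months 1 of 8 members fell in 56Fe livers, where 3.65% of genes passed. None passed by limma in 16O livers (1.11% of genes), although 6 had an unadjusted p under 0.05 and limma-voom passed 1, Ppp1r3b. Among all genes, 1736 of 11312 had such an unadjusted p. None passed in 28Si livers at 9 months (0.124% of genes), with 0 at an unadjusted p under 0.05, where 1313 of 11301 genes were, and 0 by limma-voom.
At 12 months no member passed by limma in 56Fe (0% of genes), 16O (0.00878%) or 28Si livers (0.0176%), with 0, 0 and 4 members at an unadjusted p under 0.05 and 0 by limma-voom. Among all genes, 393 of 11442, 244 of 11395 and 877 of 11380 had such an unadjusted p. The median log2 fold change of the members was within 0.27 of 0 at 1, 2, 4 and 12 months, whereas at 9 months it was -0.59 in 56Fe, -0.55 in 16O and -0.37 in 28Si livers, with 7 of 8 members lower in each and Gys2 higher, although Gys2 turned lower in 28Si with RPKM as deposited. The median over all genes tested at 9 months was -0.0027, 0.0042 and 0.014. These 3 comparisons share the controls of 9 months, in which several members were at their highest. Ppp1r3g, among the lower members, passed the filter only through these controls in 56Fe and largely through them in 16O and 28Si. Its direction there was favoured in advance.

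**Figure D3:**
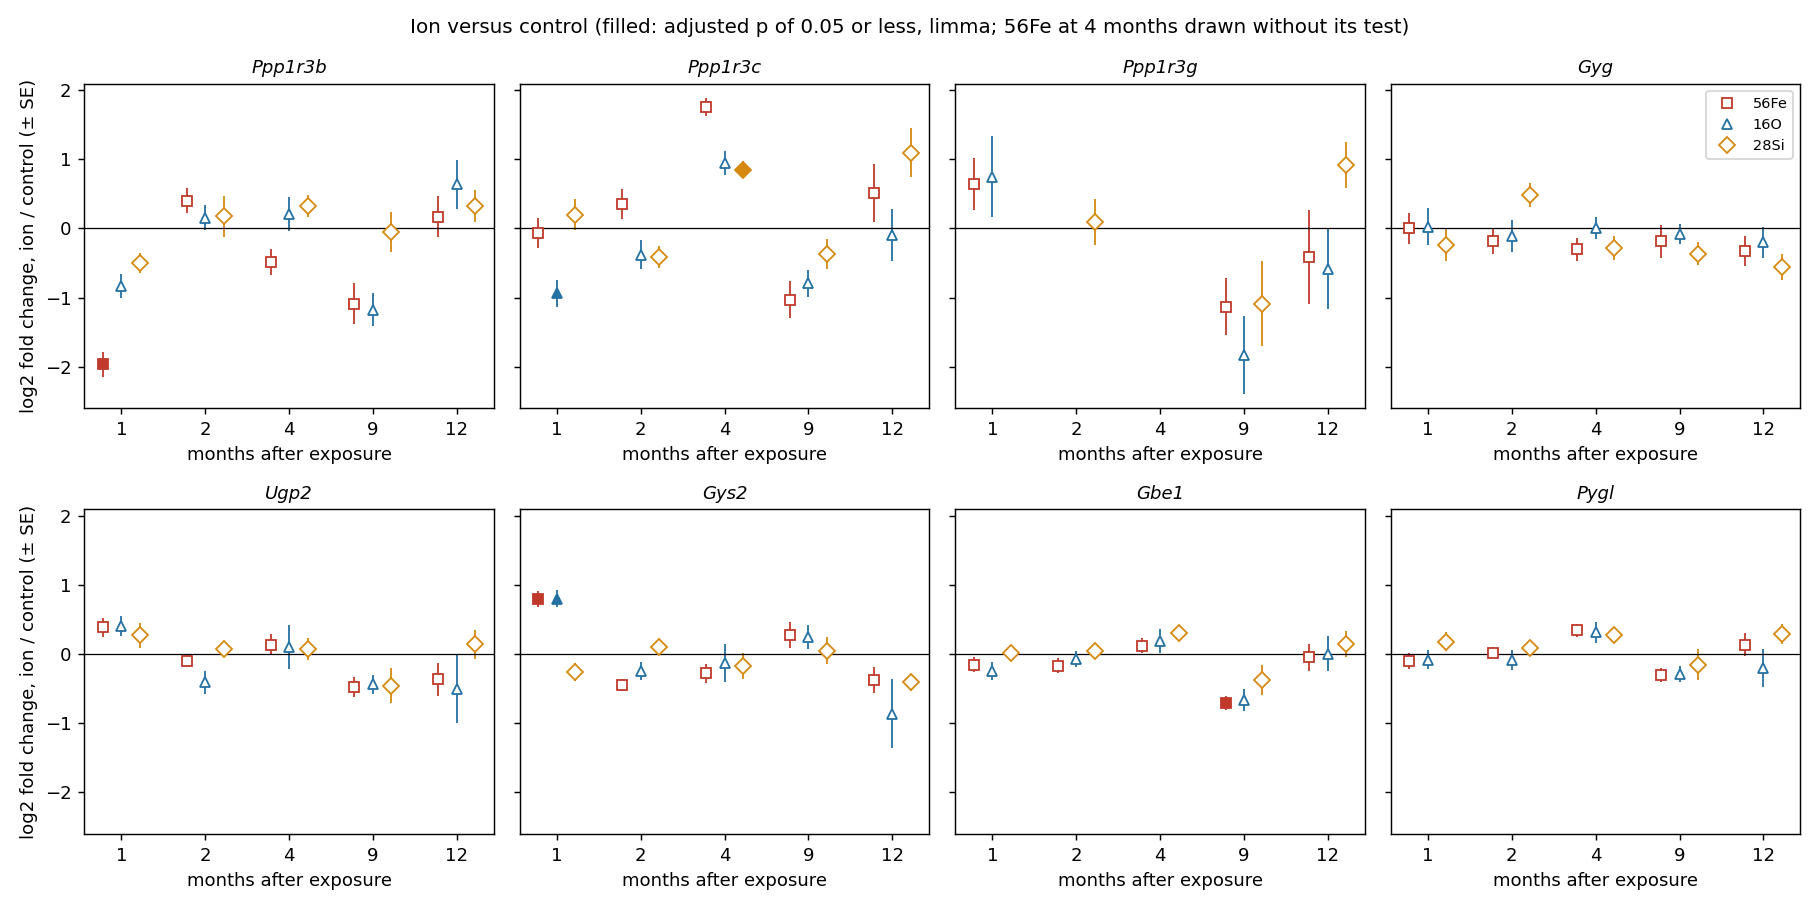
Log2 fold change of each ion against control (vertical axis, bars 1 SE) for the 8 genes against months after exposure, with filled symbols at an adjusted p of 0.05 or less from limma and the values of 56Fe at 4 months drawn open without a test. Ppp1r3b at 1 month in 56Fe reached -1.97 and Gys2 at 1 month 0.79 in 56Fe and 0.80 in 16O, and Ppp1r3g is missing where it was not tested.

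Ppp1r3b was lower at 1 month in all 3 ion groups than in control livers, with the change passing the test in 56Fe. The controls of 1 month held 33.8, 37.2 and 33.8 scaled RPKM. The 56Fe livers held 12.0, 6.51 and 8.55, the 16O livers 17.02, 26.7 and 16.3, and the 28Si livers 24.3, 20.9 and 29.9. No irradiated liver of 1 month reached the lowest control, and every 56Fe liver lay below every 16O and 28Si liver. The log2 fold change of Ppp1r3b was -1.97 in 56Fe (SE 0.183, adjusted p = 0.00136), -0.83 in 16O (SE 0.179, adjusted p = 0.0502) and -0.51 in 28Si (SE 0.143, adjusted p = 0.225). Limma-voom passed Ppp1r3b in 16O at 1 month. The call in 56Fe held under each left-out library, with adjusted p from 6.3e-04 to 0.0070. Compared directly at 1 month, 56Fe was below 28Si by -1.48 (SE 0.213, adjusted p = 0.00113) and below 16O by -1.14 (SE 0.213, adjusted p = 0.0498), and the latter call was lost without any of the 6 libraries (adjusted p 0.0539 to 0.261).
The 56Fe difference of Ppp1r3b at 1 month also departed from the mean of its differences at the other 4 times, 4 months included, by -1.73 on the log2 scale (SE 0.367, adjusted p = 0.017), in a comparison where 0.487% of genes passed. That call was lost without 56Fe replicate 2 (adjusted p = 0.132) or 3 (0.0561) of 1 month, and without control replicate 1 (0.0691) or 2 (0.0575) of 1 month, and with RPKM as deposited (0.0614).
The low 56Fe level of Ppp1r3b at 1 month, 9.02 ± 2.78 scaled RPKM (SD, n = 3), was close to the level that control livers had at 2 months, 6.98 ± 1.05 (SD, n = 3).

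Among control livers, Ppp1r3b fell between 1 and 2 months and rose between 2 and 4 months. The controls of 2 months held 7.74, 5.78 and 7.42 scaled RPKM and those of 4 months 13.6, 20.7 and 20.1, so the 3 times did not overlap. The log2 change was -2.32 from 1 to 2 months (SE 0.329, adjusted p = 1.1e-04), where 1 of 8 members and 0.738% of genes passed, and it held without each library. From 2 to 4 months it was 1.35 (SE 0.329, adjusted p = 9.7e-04), where 3 of 8 members and 38.6% of genes passed. The share of mapped pairs in transcripts was 54.0 to 60.2% in the controls of 2 months and 80.0 to 84.1% in those of 4 months, and with RPKM as deposited the median of all genes shifted up by 0.45 in that step. The change of Ppp1r3b was then 1.81, and time and library makeup cannot be told apart there.
Beside the fall of Ppp1r3b in controls from 1 to 2 months, 3 of 16 feeding genes fell, all of them lipogenic or lipid-handling genes (Pnpla3 by -3.48, Thrsp by -1.76 and Fasn by -1.47), and none of 15 clock genes or 20 other glycogen genes passed by limma. From 2 to 4 months, 11 of the 20 other glycogen genes passed, 7 upward and 4 downward, with the phosphatase catalytic genes Ppp1cb (1.29), Ppp1ca (0.98) and Ppp1cc (0.93) and the laforin gene Epm2a (1.17) rising and Ppp1r3e falling by 1.10. In that step 6 of 15 clock genes fell, and 3 of 6 Kupffer cell markers rose, their sum being 32.9 to 44.5 scaled RPKM at 2 months and 77.4 to 87.0 at 4 months. Of other cell types' markers, the endothelial Clec4g (0.75) and Kdr (0.58), the hepatocyte Ttr (0.63) and Serpina1c (0.63) and the acinar Cela1 (1.40) rose. In the feeding list Thrsp (1.39) and Insig2 (0.96) rose and Irs2 (-1.26) and Ppargc1a (-0.88) fell. The part of these in the changes of Ppp1r3b, Gyg and Gbe1 was not tested.
At 9 months Ppp1r3b was lower in 56Fe and 16O than in control livers without passing the test. The 9-month controls held 14.5, 22.5 and 17.7 scaled RPKM, the 56Fe livers 6.01, 6.72 and 14.2 and the 16O livers 6.69, 6.33 and 11.3. Neither ion group overlapped the controls. The log2 fold changes were -1.09 (SE 0.299, adjusted p = 0.0731) and -1.18 (SE 0.237, adjusted p = 0.0536). The 28Si livers of 9 months (12.4, 14.4 and 27.6) lay around the controls.

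Ppp1r3c, which brings the phosphatase to glycogen in liver and other tissues, was the member with the largest change at 4 months. The 4-month controls held 5.98, 7.31 and 6.21 scaled RPKM and the 56Fe livers 18.998, 25.6 and 21.8, with no overlap and a log2 fold change of 1.75 (SE 0.130). These are the values on which the gene was selected. In the other ions at 4 months, the 16O livers held 15.3, 13.1 and 9.79 and the 28Si livers 10.7, 10.8 and 13.4, all above the highest control. Ppp1r3c rose in 28Si livers by 0.85 (SE 0.124, adjusted p = 0.0298), but the call was lost without 5 of the 6 libraries taken in turn (28Si replicates 1, 2 and 3 and control replicates 1 and 3, adjusted p from 0.0837 to 0.129), without the further scaling, with the 12 libraries of the time in 1 fit and with all 60 in 1 fit, with adjusted p up to 0.440. In 16O livers it was higher by 0.94 (SE 0.169, adjusted p = 0.631). All 3 livers of both ions were higher than the controls, and the 16O and 28Si livers overlapped each other. These controls belong to the contrast on which Ppp1r3c was selected. Neither test therefore stands apart from that selection, and no support is drawn from it.
The 56Fe livers of 4 months lay above the 28Si livers by 0.89 and above the 16O livers by 0.80 (SE 0.160 for both), again without overlap. The 56Fe difference of Ppp1r3c at 4 months exceeded the mean of the differences at the other times by 1.81 (SE 0.353), where 0.181% of genes passed. Both are given without a test.

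In control livers Ppp1r3c itself reached that height at 9 months. The 9-month controls held 22.1, 26.5 and 17.2 scaled RPKM and the 12-month controls 10.5, 4.01 and 6.20, and neither the 4-month nor the 12-month controls overlapped them. The rise from 4 to 9 months was 1.72 (SE 0.316, adjusted p = 0.00145), where 2 of 8 members and 1.97% of genes passed. The fall from 9 to 12 months was -1.74 (SE 0.316, adjusted p = 0.00147), where 2 of 8 members and 4.94% of genes passed. The rise held without each library, and the fall was lost without control replicate 2 of 12 months (adjusted p = 0.0568). The rise starts from the 4-month controls of the contrast on which Ppp1r3c was selected. Its test does not stand apart from that selection.
In irradiated livers of 9 months Ppp1r3c held 8.03, 8.52 and 16.5 scaled RPKM after 56Fe, 11.1, 16.4 and 10.3 after 16O and 20.7, 12.3 and 17.4 after 28Si. The 56Fe and 16O livers all lay below the lowest control, and the 28Si livers overlapped the controls. The log2 fold changes against control were -1.03 in 56Fe (SE 0.265, adjusted p = 0.0638) and -0.80 in 16O (SE 0.2004, adjusted p = 0.0998).
The 56Fe difference of Ppp1r3c at 9 months was below the mean of its differences at the other times by -1.67 (SE 0.353), where 1.71% of genes passed. The other times include 4 months, on which the gene was selected, so this value is given without a test. Against 1, 2 and 12 months alone, an alternative added after seeing the data, it was -1.30 with an adjusted p of 0.0684.

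At 1 month Ppp1r3c was lowest in 16O livers. The controls held 7.35, 8.97 and 12.3 scaled RPKM, the 16O livers 4.03, 5.19 and 5.21, the 56Fe livers 11.7, 8.94 and 6.54 and the 28Si livers 13.3, 7.99 and 11.8. All 16O livers lay below all others of 1 month. Ppp1r3c fell by 0.94 in 16O against control (SE 0.1899, adjusted p = 0.0409), a call lost without 5 of the 6 libraries (16O replicates 1, 2 and 3 and control replicates 2 and 3, adjusted p from 0.0571 to 0.161), with RPKM as deposited, without the filter on low values and with all 60 libraries in 1 fit (adjusted p up to 0.150). Against 28Si the 16O livers differed by -1.15 (SE 0.231, adjusted p = 0.00558), a call that held without each library. Beside it in 16O livers against control, 3 of 15 clock genes passed, among them Dbp (0.56) and Nr1d1 (-0.75), and 2 of 16 feeding genes fell, Fasn by 1.05 and Acly by 0.72. Their part in the Ppp1r3c and Gys2 differences was not tested.
At 12 months Ppp1r3c was high in 28Si livers (17.7, 16.5 and 9.20 scaled RPKM) beside controls of 10.5, 4.01 and 6.20, which overlapped, with a log2 fold change of 1.09 (SE 0.350, adjusted p = 0.595).

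Ppp1r3g, a further targeting subunit, was the member of lowest level and passed in no comparison by limma. At 1 month the 16O livers held 1.92, 1.86 and 0.294 scaled RPKM and the controls 0.417, 0.381 and 1.20. At 12 months the 28Si livers held 1.40, 1.31 and 1.29, all above the 12-month controls (1.16, 0.611 and 0.395), with a log2 fold change of 0.91 (SE 0.334, adjusted p = 0.625). At 9 months it was lower in 56Fe by -1.13, in 16O by -1.83 and in 28Si by -1.09 (SE 0.416 to 0.614). The adjusted p from limma were 0.13, 0.171 and 0.517. Every control of 9 months reached 0.5 RPKM (0.561 to 1.93), but no 56Fe liver did (0.347 to 0.433). The gene thus entered the 56Fe fit through the group in which it was high, and its p there is no support.

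Gyg, the primer of the particle, passed in 1 comparison by limma. It rose in controls from 2 months (1.43, 1.37 and 1.14 scaled RPKM) to 4 months (2.34, 2.65 and 1.88), by 0.75 (SE 0.198, adjusted p = 0.00208), in the step where 38.6% of genes passed. Under other processing choices that log2 change ranged from 0.50 to 1.95, with 1 value moved. Gyg had an estimated 18 to 184 reads a library. In 28Si livers Gyg held 1.84, 1.82 and 1.88 at 2 months and 1.71, 1.88 and 1.90 at 4 months, which overlapped. Ugp2, the maker of UDP-glucose, passed in none of the comparisons by limma or limma-voom, with an unadjusted p under 0.05 in 56Fe and 16O livers against control at 1 month among others. In those 2 comparisons 1402 of 11123 and 1446 of 11083 genes had such a p. Mice of 1 group could differ widely in Ugp2, with 164, 152 and 69.5 scaled RPKM in 16O livers of 4 months. The highest group of Ugp2 was control at 9 months (151, 189 and 146).

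Gys2, the liver synthase, rose at 1 month after 56Fe and after 16O but was not higher after 28Si. The controls held 41.3, 44.005 and 52.5 scaled RPKM. The 56Fe livers held 76.7, 79.0 and 79.7, the 16O livers 82.6, 75.1 and 80.9 and the 28Si livers 43.01, 37.4 and 35.6. The 56Fe and 16O livers lay above all controls and all 28Si livers of 1 month, and the 28Si livers overlapped the controls. The 1-month controls had the lowest Gys2 mean of the control groups. It was 45.9, against 80.5 at 2, 68.7 at 4, 62.7 at 9 and 91.5 at 12 months. The means of 56Fe (78.4) and 16O livers (79.5) of 1 month lay within the range of these later control means. The log2 fold change against control was 0.79 in 56Fe (SE 0.113, adjusted p = 0.0091) and 0.80 in 16O (SE 0.123, adjusted p = 0.0133), and -0.26 in 28Si (SE 0.129, adjusted p = 0.419). Each of the former calls was lost without 3 of the 6 libraries, with adjusted p of 0.0505 to 0.0745 without 56Fe replicates 2 and 3 or control replicate 2, and 0.0510 to 0.0656 without 16O replicate 1 or control replicates 1 and 2. They were also lost without the further scaling and with all 60 libraries in 1 fit, with adjusted p up to 0.252 in 56Fe and 0.186 in 16O.
Between ions the difference of Gys2 at 1 month held without each library, at 1.03 for 56Fe over 28Si (SE 0.108, adjusted p = 1.07e-04) and 1.04 for 16O over 28Si (SE 0.108, adjusted p = 5.08e-05). Of the 8 members 2 passed in each of these, among 9.37% of genes for 56Fe against 28Si and 13.8% for 16O against 28Si. For 56Fe against 16O at 1 month 1 of 8 members passed, Ppp1r3b, among 0.199% of genes.
Clock genes differed beside Gys2 in the comparisons with 28Si. Of 15 clock genes tested 13 passed for 56Fe against 28Si (11 rose and 2 fell, median 0.94) and 14 for 16O against 28Si (11 rose and 3 fell, median 1.14). The clock activator Arntl differed by -2.42 and -3.16, its repressor gene Ciart by 2.54 and 3.19, Per3 by 2.18 and 2.34 and the output factor Dbp by 2.28 and 2.20 (adjusted p of 1.0e-04 or less from limma for each). Dbp held 15.9 to 20.6 scaled RPKM in the 28Si livers of 1 month, 52.6 to 63.4 in the controls, 80.7 to 93.4 in the 56Fe livers and 81.2 to 86.9 in the 16O livers. In the feeding list 5 of 16 genes passed in each of the 2 comparisons, 1 upward and 4 downward, among them Pdk4, the kinase that blocks pyruvate oxidation in fasting, at -1.79 and -2.44. In 28Si against control at 1 month 6 of 15 clock genes also passed, with Arntl at 1.87, Ciart at -2.38, Per1 at -1.86 and Dbp at -1.66, while Gys2 did not pass (-0.26, adjusted p = 0.419). The part of the clock and of feeding in the Gys2 difference was not tested.
Of the 24 other glycogen genes listed, 19 were tested at 1 month. Against 28Si, the subunit gene Ppp1r3e rose by 1.16 and the phosphatase gene Ppp1cb fell by 0.51 in 56Fe livers, and in 16O livers Pgm1 fell by 0.41 and Ppp1ca by 0.55. None of the 19 passed in 56Fe or 16O against control at 1 month.
Beside the low Ppp1r3b and the high Gys2 of 56Fe livers at 1 month, 4 of 16 feeding genes fell against control, among them Fasn by 1.17 and Thrsp by 1.07, and 1 of 15 clock genes rose, Dbp by 0.64.

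At 2 months the order of Gys2 was turned. The 28Si livers held 75.9, 87.2 and 92.8 scaled RPKM, the controls 73.7, 79.2 and 88.7 and the 56Fe livers 58.3, 55.8 and 60.4, which lay below both. Gys2 differed by -0.55 between 56Fe and 28Si (SE 0.109, adjusted p = 0.0296), where 1 of 8 members and 1.17% of genes passed, but the call was lost without each of 5 libraries (28Si replicates 2 and 3 and 56Fe replicates 1, 2 and 3, adjusted p 0.0856 to 0.116), without the further scaling and without the filter on low values (adjusted p up to 0.24). Against control the 56Fe difference was -0.45 (SE 0.0875, adjusted p = 0.145). Beside it between 56Fe and 28Si, Acly rose by 0.69 and Cpt1a, which admits fatty acids to mitochondria, fell by 0.59, and none of 15 clock genes passed by limma.
No member passed by limma for 56Fe against 16O (0.374% of genes) or 16O against 28Si (0.582%) at 2 months, with 2 and 3 members at an unadjusted p under 0.05 and 0 by limma-voom. Of 11510 genes, 1810 and 2326 had such an unadjusted p.
In the comparisons of ions at 4 months, Ppp1r3c in 56Fe livers carries no test. No other member passed by limma for 56Fe against 28Si (0.981% of genes) or 56Fe against 16O (0.0688%), and no member for 16O against 28Si (0.318%). At an unadjusted p under 0.05 were Ppp1r3b in the former, Ppp1r3b and Gyg in 56Fe against 16O, and 0 members in 16O against 28Si, and limma-voom passed 0 of these. Of 11620 genes, 1940, 815 and 1370 had such an unadjusted p.
No member passed by limma between ions at 9 months (56Fe against 16O, 0% of genes; 56Fe against 28Si, 0.255%; 16O against 28Si, 0.383%) or at 12 months (0% of genes in each). Those at an unadjusted p under 0.05 numbered 0, 2 and 1 at 9 months and 0, 0 and 2 at 12 months, and limma-voom passed 0. Genes with such an unadjusted p numbered 1655, 1777 and 1517 of 11754 at 9 months and 349, 230 and 766 of 11926 at 12 months.

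Gbe1, the branching enzyme, separated early from late livers and was at its highest in control livers of 9 months. How many other genes separate the same libraries was not computed. The Spearman correlation of Gbe1 with the share of pairs in transcripts was 0.73, and time and library makeup cannot be told apart there. The controls held 18.9, 21.98 and 21.1 scaled RPKM at 2 months, 32.2, 38.4 and 30.8 at 4 months, 53.4, 63.4 and 59.1 at 9 months and 51.2, 30.4 and 38.6 at 12 months. The controls of 9 months overlapped none of the other times. Gbe1 rose by 0.70 from 2 to 4 months (SE 0.184, adjusted p = 0.00206), in the step where 38.6% of genes passed, and the value was 1.16 with RPKM as deposited. It rose by 0.80 from 4 to 9 months (SE 0.184, adjusted p = 0.0116), a call lost without control replicate 1 (adjusted p = 0.0597) or 3 (0.0932) of 4 months or replicate 2 of 9 months (0.0891). From 9 to 12 months it was lower by -0.58 (SE 0.184, adjusted p = 0.0568).
After 56Fe the 9-month livers held 32.7, 36.95 and 36.4, below all controls of that time and within the range of the 56Fe livers of 4 months (39.3, 38.1 and 32.8) except for the lowest. Gbe1 fell by 0.71 against control (SE 0.102, adjusted p = 0.027), a call lost without 56Fe replicate 1 (adjusted p = 0.074) or 2 (0.114) or control replicate 1 (0.062) or 2 (0.125), and with the 12 libraries of the time in 1 fit (0.0825). After 16O the values were 39.4, 29.1 and 42.96, also below all controls, with a difference of -0.66 (adjusted p = 0.0888), and after 28Si 53.04, 30.4 and 54.1, which overlapped.
Beside Gbe1 in 56Fe livers of 9 months, 3 of 16 feeding genes passed, Fgf21 (-2.19), Thrsp (-1.45) and Pck1 (0.94), none of 15 clock genes passed, and the hepatocyte marker Serpina1c fell by 0.64. The summed hepatocyte markers were 26590 to 39870 scaled RPKM in controls and 21090 to 33270 in 56Fe livers. The part of these in the Gbe1 difference was not tested.

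Pygl, the phosphorylase, had the narrowest range of the 8 members over the groups. The group of the highest mean was control at 9 months (149, 156 and 129 scaled RPKM), against 102, 112 and 102 in controls at 4 months and 117, 81.1 and 97.9 at 12 months, although the highest single liver was 16O replicate 1 at 4 months (159.8). Pygl fell by 0.56 from 9 to 12 months (SE 0.173, adjusted p = 0.048), without overlap, but the call was lost without control replicates 2 and 3 of 12 months (adjusted p = 0.314 and 0.136) or replicates 1 and 2 of 9 months (0.173 and 0.192). It was also lost with median-of-ratios scaling, without further scaling, without the filter and by limma-voom, with adjusted p up to 0.167. At 9 months Pygl was lower than control in 56Fe livers (108, 117 and 123), by -0.30 (adjusted p = 0.116).
The ratio of Pygl to Gys2 in scaled RPKM at 1 month was 2.07 ± 0.147 (SD, n = 3) in controls and 2.80 ± 0.103 in 28Si livers. It was 1.12 ± 0.0533 in 56Fe and 1.13 ± 0.112 in 16O livers, and the ranges did not overlap between the former and the latter pair. The mean ratio in controls of other times varied, at 1.06 at 2 months, 1.57 at 4, 2.32 at 9 and 1.08 at 12 months. The 28Si livers of 1 month (2.71 to 2.91) lay above every control of any time, of which the highest was 2.64 at 9 months.
Beside the members of controls from 9 to 12 months, 5 of 15 clock genes passed, 3 upward (Per1, Per2 and Per3) and 2 downward (Arntl by 1.68 and Clock by 0.47), and the sinusoidal endothelial markers Clec4g and Oit3 fell by 0.90 and 0.54. The 5 endothelial markers summed to 46.6 to 60.8 scaled RPKM at 9 months and 31.3 to 41.8 at 12 months. From 4 to 9 months 1 of 15 clock genes rose, Arntl (1.40), and 3 of 16 feeding genes, Pnpla3 (2.49), Fgf21 (2.14) and Elovl6 (1.42). Their part in the changes of Ppp1r3c, Gbe1 and Pygl was not tested.
Beside Ppp1r3c in 56Fe livers of 4 months, given without a test, Arntl differed from control by 2.06, Clock by 0.76, the fasting hormone gene Fgf21 by 2.47, Pdk4 by 1.39, Insig2 by 1.04 and the glucose-6-phosphatase gene G6pc by 1.43. In 28Si livers of 4 months Fasn rose by 0.88 and 1 of 6 Kupffer cell markers, Cd5l, fell by 0.74, with the 6 markers summing to 53.2 to 59.4 scaled RPKM against 77.4 to 87.0 in controls, and none of them listed at 0. The part of these was not tested.

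Whether the difference from control changed with time was compared for each ion as its difference at 1 time against the mean of the other 4. Besides Ppp1r3b at 1 month, and the untested Ppp1r3c at 4 and 9 months, no member passed by limma in 56Fe livers, and at 2 months (0.00785% of genes) and 12 months (0.0236%) 1 member each was at an unadjusted p under 0.05 and limma-voom passed 0. Of 12731 genes, 737 and 574 had such an unadjusted p. In 16O livers no member passed by limma at 1 (0.558% of genes), 2 (0%), 4 (0.0236%), 9 (0.518%) or 12 months (0.11%). There 4, 0, 3, 3 and 2 members had an unadjusted p under 0.05, and limma-voom passed 0. Of 12731 genes, 1393, 843, 1163, 1316 and 1439 had such an unadjusted p. In 28Si livers no member passed by limma at 1 (0.267%), 2 (0%), 4 (0%), 9 (0.102%) or 12 months (0.00785%), with 0, 2, 0, 3 and 1 members at an unadjusted p under 0.05 and 0 by limma-voom. Of 12731 genes, 1486, 431, 446, 1525 and 1004 had such an unadjusted p.

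Over the 60 libraries Ugp2, Gbe1 and Pygl had the highest correlations among the members. Pearson's r was 0.82 between Gbe1 and Ugp2, 0.81 between Pygl and Ugp2 and 0.78 between Pygl and Gbe1. Taken as deviations from the group means, r was 0.87 for Pygl and Ugp2, 0.83 for Gys2 and Ugp2 and 0.78 for Pygl and Gbe1. Ppp1r3b had r of -0.41 with Gys2 over the libraries and -0.04 as deviations. Ppp1r3c had r of 0.69 with Pygl and 0.35 as deviations. The 60 libraries share group, time and library makeup, and Spearman's rho with the share of pairs in transcripts was 0.75 for Ugp2, 0.73 for Gbe1 and 0.69 for Pygl but 0.10 for Ppp1r3b and 0.11 for Gys2.
Among 10006 genes with a mean of at least 1 scaled RPKM, those most like Ppp1r3b over the 60 libraries were Thrsp (rho 0.72), Rpia (0.72) and Tsc22d3 (0.70). Those most like Ppp1r3c were Acat3 (0.81), Gldc (0.81) and Psen2 (0.81). Ppp1r3g was most like Cyp46a1 (0.70), Serpina6 (0.69) and Cyp2c23 (0.69).

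**Figure D4:**
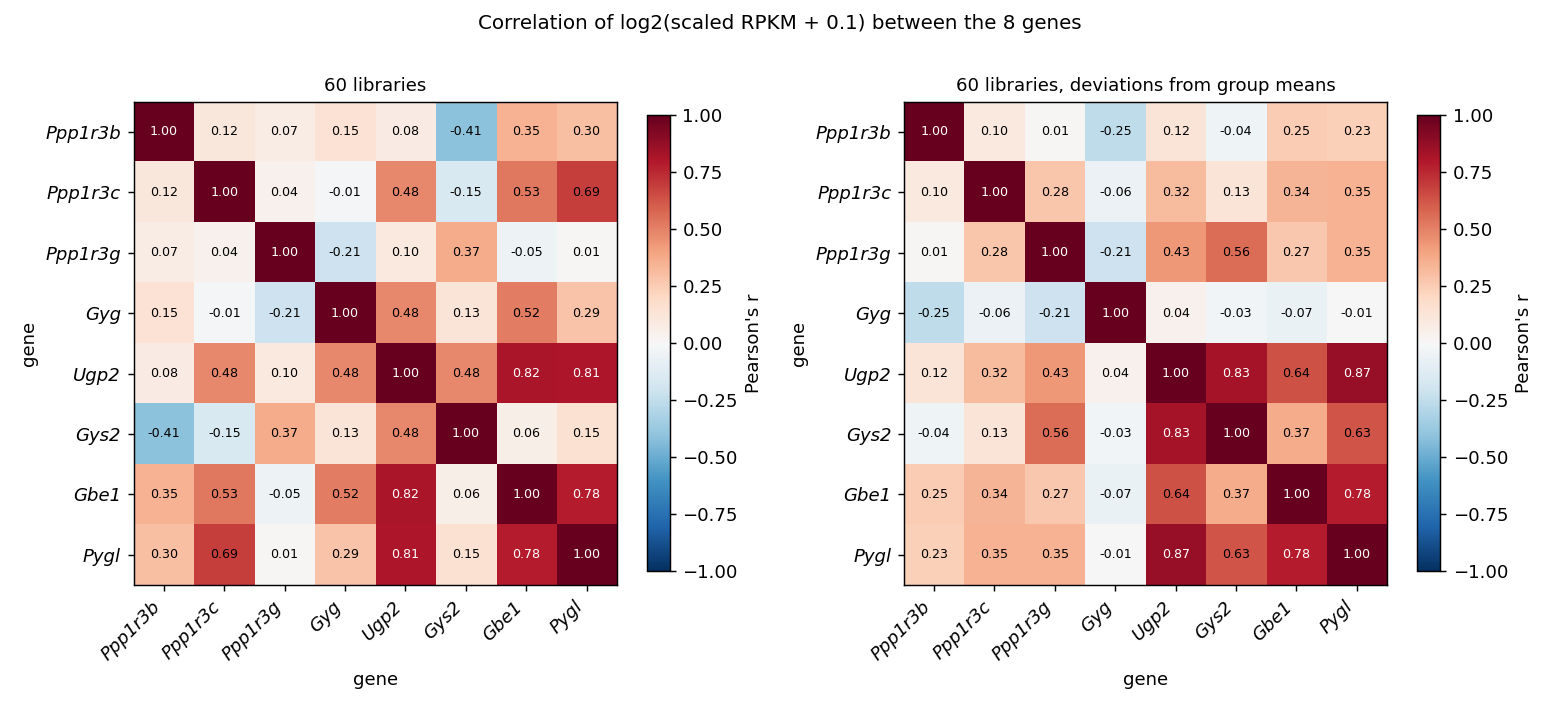
Pearson's r between the 8 genes over 60 libraries (left) and over the deviations of the same libraries from their group means (right), from -1 in blue to 1 in red. Ugp2, Gbe1 and Pygl form the block with r of 0.78 to 0.82 on the left, whereas on the right Gys2 joins Ugp2 with 0.83.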

How the data were processed

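Left-lobe liver RNA of 60 mice, 3 separate animals in each of 20 groups, was depleted of ribosomal RNA and sequenced. In CLC Genomics Workbench the authors removed the leading 14 bases of each read, aligned to GRCm38 (annotation version 97) with a required length fraction of 95%, and deposited RPKM values per transcript and library. The authors ran their own tests on raw counts, which were not used here, nor were the 20 columns of group means. No per-sample column was left unmapped (0).

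Here the RPKM of transcripts sharing a gene name were summed (123811 transcripts, 38204 genes) and each library was scaled with a trimmed mean of log ratios without weights (30% of ratios and 5% of levels trimmed). log2(scaled RPKM + 0.1) was tested with limma 3.58.1 (R 4.3.3) with a trended variance for genes that reached 0.5 RPKM in 3 or more of the fitted libraries, with Benjamini-Hochberg adjustment over all genes tested. A fold change on this scale understates that of low genes. Each ion-control fit used 6 libraries, the fits between ions used the 12 of a time, and those of control times and of changes of an ion's effect with time used all 60. Tables and motifs were handled in Python 3.11.15 with pandas 2.3.3 and numpy 2.4.6, and the test was tested on simulated data. Values of at most 30 reads came out as whole reads within 0.02 in 99.8 to 100% of cases a library, and limma-voom was run on the estimated reads. Depth, inferred from the RPKM step of 1 read in genes of 1 transcript, is given with the results, and no 2 libraries had a Spearman correlation above 0.991.

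All 8 members were named, with full statistics where a member passed or was among the 3 largest fold changes of the members in a comparison. Where a member passed, genes of the other glycogen, glucose, clock and feeding lists that passed were counted and at most 5 a list were named. Values of some list genes are not reported here. For each targeting subunit the 3 genes with the highest Spearman correlation were named. Members and lists were chosen with earlier results of these data known. Replicate numbers paired the samples by correlation of deviations only for control and 16O at 12 months (0.335, 0.517 and 0.248), where a blocked fit called 0 members, as did the unblocked one. Other scalings, pseudocounts, filters, fits and left-out libraries were tried as alternatives. Strand-specific counting is not given in the sources used here.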

Additional observations from a re-analysis of the deposited data

Results flagged for a closer look

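At 1 month the ions differed from each other in 3 members when compared directly with limma. Of all genes, 0.199% passed for 56Fe against 16O, 9.37% for 56Fe against 28Si and 13.8% for 16O against 28Si. Ppp1r3b, the main glycogen-targeting subunit of liver, differed by -1.14 on the log2 scale between 56Fe and 16O (adjusted p = 0.0498). That call was lost without each of the 6 libraries in turn. Between 56Fe and 28Si Ppp1r3b differed by -1.48 (adjusted p = 0.00113). Gys2, the liver glycogen synthase, differed by 1.03 between 56Fe and 28Si (adjusted p = 1.07e-04) and by 1.04 between 16O and 28Si (adjusted p = 5.08e-05). Ppp1r3c differed by -1.15 between 16O and 28Si (adjusted p = 0.00558). At 2 months Gys2 differed by -0.55 between 56Fe and 28Si (adjusted p = 0.0296), where 1.17% of genes passed. The call at 2 months was lost without each of 5 libraries in turn.

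The difference of 56Fe from control depended on time for Ppp1r3b, in a call lost without each of 4 libraries and with RPKM as deposited. It was lower at 1 month than over the other times by -1.73 (adjusted p = 0.017), where 0.487% of genes passed. For Ppp1r3c it was lower at 9 months than over the other times by -1.67, but those times include 4 months, on which the gene was selected, and against 1, 2 and 12 months alone it did not pass (-1.30, adjusted p = 0.0684). With groups of 3 mice, no formal test for single outlying samples was made. Each library was compared with its group by correlation and was left out in turn.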

How the results depend on the processing

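Counts here include Ppp1r3c in 56Fe at 4 months, which the report gives without a test (1 of the 2 against control at 4 months, the 1 between ions at 4 months), and 2 of the 3 effects at 1 time, both Ppp1r3c in 56Fe. Of 246 values of the 25 named results under other processing choices, 217 were the same, 26 lost the threshold, 3 moved and 0 reversed. Tested values were the same if they kept direction and side of the threshold. Values with no test were the same if the fold lay within the SD between replicates of the reported fold. They were the Ppp1r3c results of 56Fe at 4 months and every value from the highest transcript alone. The 56Fe difference of Ppp1r3c at 9 months against the other times, reported without a test, was scored here by its threshold. With RPKM as deposited, members called against control numbered 1 at 1 month (4 in the reported fit) and 1 at 4 months (2 in that fit), and between ions at 2 months 0 (1 in that fit), also 0 without the filter on low values. Limma-voom gave 2 at 9 months (1 in the reported fit). One fit of the 12 libraries of a time gave 1 at 4 months and 0 at 9 months against control, and 1 fit of all 60 gave 1 at 1 month, 1 at 4 months and 3 at 9 months. With only the 6 libraries of a pair, 2 members were called between ions at 4 months (1 in the reported fit). The cause was not tested. The share of all genes passing was not computed for these settings or for left-out libraries. Moves in these counts are therefore no result about the members.

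With the replicate number as a block, members called against control numbered 6 at 1 month, with Ppp1r3b and Ugp2 added in 16O, 1 at 4 months and 3 at 9 months. Under that block Ppp1r3c in 28Si at 4 months had an adjusted p of 0.203 and Ppp1r3b between 56Fe and 16O at 1 month 0.0907. Outside control and 16O at 12 months the numbers did not pair the samples.

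With each library left out in turn, members called against control ranged from 1 to 4 at 1 month, from 1 to 2 at 4 months and from 0 to 4 at 9 months, and were 0 at 2 and 12 months. Between ions they ranged from 4 to 5 at 1 month, from 0 to 4 at 2 months and from 0 to 1 at 4 months, and were 0 at 9 and 12 months. They ranged from 6 to 9 over the control times (8 in the reported fit) and from 2 to 5 for the effects at 1 time (3 in the reported fit). Of 222 values of named results, 46 lost the threshold and 0 reversed. The untested Ppp1r3c values of 56Fe at 4 months among the 222 had no threshold to lose. The 56Fe difference of Ppp1r3c at 9 months against the other times was scored by its threshold, and 3 of its 30 values lost it. The contrast against 1, 2 and 12 months alone was chosen after seeing the data.

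RPKM as deposited moved the median of all genes by over 0.1 in several comparisons, most in controls from 2 to 4 months (0.449), where Gys2 and Ppp1r3c turned from lower to higher. Ppp1r3g had as few as 2 reads in a library.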
